A study of Mus musculus with 6 samples.

Results

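The genes described are 9 members of the fatty acid sensing system of the cell nucleus, namely the receptors Ppara, Ppard, Pparg, Rxra and Rxrb, the coactivator Ppargc1a, and the target genes Pdk4, Angptl4 and Ucp2. They were chosen by symbol, and 13 of the 55681 probes on the array matched them through RefSeq accessions. Of the 9 genes, 7 had a signal well above background and were tested, while Pdk4 and Ucp2 did not. RNA came from adult hippocampal precursor cells, isolated from dentate gyri of male C57BL6/JRj mice aged 8 weeks and grown in an adherent layer with 20 ng/ml each of EGF and bFGF. Cells received human LDL (3 arrays) or saline (3 arrays) for 48 h, and the replicates were independent experiments on different passages. The treatment protocol gives the LDL dose as 100 ug/ml, whereas the sample descriptions name another unit of volume. All cells came from cultures, so the arrays describe proliferating cells without the niche of the dentate gyrus.

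Peroxisome proliferator-activated receptors (PPARs) are transcription factors that bind fatty acids and their derivatives. Each pairs with a retinoid X receptor (RXR), and the pair binds DNA at direct repeats of the hexamer AGGTCA spaced by a single base, called DR1 elements. PPAR alpha is best known for fatty acid oxidation in liver, PPAR delta for oxidation in muscle and many other tissues, and PPAR gamma for fat cell formation. LDL particles carry cholesterol mainly as esters, and the fatty acids of these esters are freed in lysosomes after uptake. Adult neural precursor cells are known to use both fatty acid oxidation and fatty acid synthesis.

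The promoter windows of the receptors are shown because the elements that the PPAR and RXR pair binds can themselves lie near the genes of the system. RefSeq windows on GRCm38.p6, reaching from 250 bases before to 50 after an annotated start, were held for 8 of the 9 genes, with 12 windows in all. Angptl4 had no entry. The hexamer AGGTCA was searched on both strands, and the DR1 element AGGTCANAGGTCA was searched on both strands with mismatches counted over its 12 fixed bases. A DR1 match therefore overlaps any hexamer inside it. The hexamer occurred 4 times in 3 of the 12 windows, 25% of them, and in 16.3% of all 32841 windows in the table. There were 2 in Rxra and 2 in Pparg, and each is given 5′ to 3′ on the strand that reads AGGTCA, with the hexamer in capitals.
Rxra, second start, chr2:27709205-27709210, opposite strand to the gene: cattactcAGGTCAcacccatt
Rxra, second start, chr2:27709244-27709249, same strand as the gene: ggcaggaaAGGTCAgtcactct
Pparg, first start, chr6:115361116-115361121, same strand as the gene: gccgcctcAGGTCAgagtcgcc
Pparg, second start, chr6:115362340-115362345, same strand as the gene: acgcgaggAGGTCAagaagggg

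An intact DR1 element was in 0 of the 12 windows and in 0.0396% of all windows. With up to 2 mismatches, 1 of the 12 windows (8.33%) held a match, that of the second Rxra start, against 3.86% of all windows. With up to 3 mismatches it was still 1 of the 12, against 24.6% of all windows. The match with up to 2 is given with the 13 matched bases in capitals.
Rxra, second start, chr2:27709217-27709229, same strand as the gene: agtaaTGGTCATAGGCCAgtggg

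The 2 annotated Rxra starts differ in sequence, which is shown because the 2 Rxra probes of the array gave different values. The deposited files do not place the probes on these transcripts. The 250 bases before each start follow on the plus strand, which is that of the gene, with hexamers on either strand in capitals.
Rxra, first start, chr2:27676951-27677200: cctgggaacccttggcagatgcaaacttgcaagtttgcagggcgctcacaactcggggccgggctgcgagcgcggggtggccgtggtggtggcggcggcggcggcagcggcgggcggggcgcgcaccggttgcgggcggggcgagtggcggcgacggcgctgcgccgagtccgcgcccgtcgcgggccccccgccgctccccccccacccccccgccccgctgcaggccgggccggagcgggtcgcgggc
Rxra, second start, chr2:27709042-27709291: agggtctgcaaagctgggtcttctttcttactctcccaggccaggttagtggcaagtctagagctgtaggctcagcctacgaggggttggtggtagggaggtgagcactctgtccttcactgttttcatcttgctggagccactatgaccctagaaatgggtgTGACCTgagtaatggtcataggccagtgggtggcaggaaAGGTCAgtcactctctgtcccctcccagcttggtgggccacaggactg
A match in such a window is a description and no measured binding site.

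Signals were scaled within each array, and a level below is the log2 signal minus the 75th percentile of that array, so a level of 0 equals that percentile. Levels of different probes cannot be set against each other. On an array, 55.9% to 66.9% of the probes were well above background. After LDL, 6 of 24222 tested features were higher and 28 were lower at an adjusted p of 0.05 in limma, which is 0.14% of features in either direction. The number of arrays limits the precision, and with 3 arrays against 3 the exact permutation test cannot go below a two-sided p of 0.1. Precursor markers were measured for 11 of 12 genes, among them Nes, Sox2 and Mki67, with 0 called and a median difference of -0.10. Of 8 astrocyte markers 1 passed in limma, Gfap, which was higher with LDL (log2 ratio 1.35, adjusted p = 0.0216). Yet 7 of the 8 had negative values, where 43.7% of all features had positive ones, and the list had a median of -0.23. The astrocyte markers summed to 132 to 148 times the 75th percentile of the array with LDL, against 162 to 186 with saline, and their part in the values below was not tested. The sum came nearly all from Aldoc and Slc1a3, at levels of 6.69 and 5.14 with LDL, against 6.93 and 5.47 with saline, and it adds signals of different probes, so only its arrays can be compared. Of 8 neuronal markers 6 were tested with 0 called, with 2 positive and 4 negative values and a median of -0.07. Map2, Snap25 and Syp had -0.02, -0.12 and 0.02. Prox1 had 0.37 with arrays that did not overlap, whereas Tubb3 had -0.33 and Rbfox3 -0.25 with arrays that did. Dcx and Neurod1 were well above background on no array. Of 6 fat cell markers 3 were tested, Cidec, Lep and Retn, with 0 called, and Adipoq and Fabp4 were well above background on no array. Of 10 markers of microglia or macrophages 6 were tested with 0 called, 2 positive and 4 negative values and a median of -0.18. Itgam and Csf1r were the positive ones, and Tmem119 had -0.41 (adjusted p = 0.511 in limma) with arrays that did not overlap. P2ry12 and Trem2 were well above background on no array.

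None of the 7 tested genes passed over all features, and 0 had an unadjusted p under 0.05 in limma, where 7.5% of all features did. In a bulk sample, fewer cells of a type and less RNA per cell cannot be told apart. Their adjusted p lay between 0.773 and 0.995. The log2 ratios ran from -0.23 for Ppargc1a to 0.26 for Angptl4, with a median of -0.01, against -0.03 over all features. The median absolute difference was 0.086 for the 7 genes and 0.115 for all features. A larger absolute difference than that of Angptl4 was found in 16.8% of features, than that of Ppargc1a in 20.9%, and than that of Rxra in 97.4%. LDL and saline arrays did not overlap for 1 of the 7 genes, Pparg, whereas they did not overlap for 14.7% of all features. For the brightest probes of 6 of the 7 genes, the 95% interval of the ratio of LDL to saline lay between 0.685 and 1.31. A change of 1.5-fold was outside it for these probes. For Angptl4 the interval was wider, from 0.894 to 1.6. The dimmer Rxra probe and the single-spot Ppara probe, described below, had ratios of 1.45 and 1.47. Their log2 intervals reached 0.88 and 1.48 and took in a change of 1.5-fold.

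**Figure D1:**
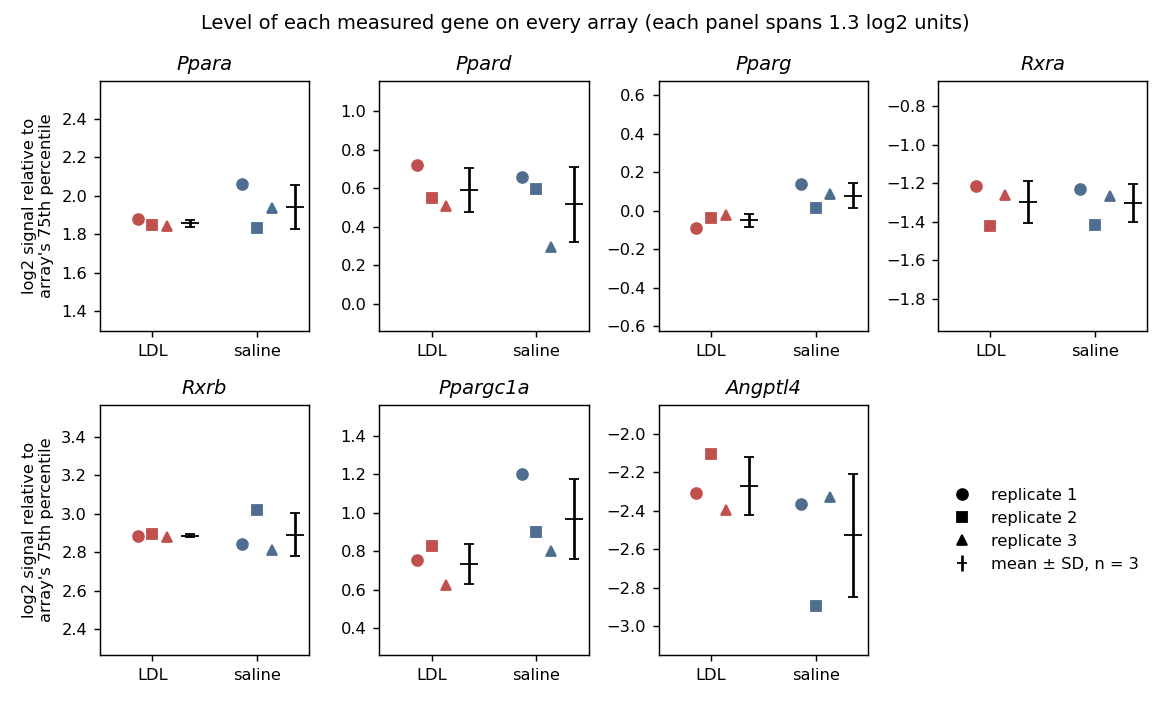
Levels of the 7 measured genes on every array, as log2 signal minus the log2 of the 75th percentile on that array, with LDL left of saline. Symbols mark replicates, bars are mean ± SD (n = 3 each) and each panel spans the same range; only Pparg has groups that do not overlap.

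Among the PPAR receptors, Ppara encodes PPAR alpha. Its brightest probe had levels of 1.88, 1.85 and 1.84 with LDL, against 2.06, 1.83 and 1.93 with saline, in the order of replicates 1 to 3. The LDL arrays lay close together within the range of the saline arrays. The means were 1.86 ± 0.02 with LDL and 1.94 ± 0.12 with saline (SD, n = 3 each), a log2 ratio of -0.09 (SE 0.10, adjusted p = 0.897 in limma). The other 2 Ppara probes were also above background on all 6 arrays. The first of these, with 2 spots an array like the brightest, had a log2 ratio of 0.03 (95% interval -0.21 to 0.28). The remaining probe, with a single spot, had a processed signal of 276, 304.2 and 830.8 with LDL, against 278.5, 196.8 and 273.6 with saline. LDL replicate 3 stood alone at the high end, and on that array neither of the other Ppara probes stood apart. Its log2 ratio of 0.55 had an interval from -0.38 to 1.48 and did not pass (adjusted p = 0.85). With the mean over the 3 probes, the Ppara value turned to 0.17 (adjusted p = 0.883).

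Ppard, the gene of PPAR delta, had levels of 0.72, 0.55 and 0.51 with LDL, against 0.66, 0.59 and 0.29 with saline. The groups overlapped, and saline replicate 3 was the lowest of the 6. The log2 ratio was 0.07 (SE 0.13, 95% interval -0.24 to 0.38, adjusted p = 0.939). Without saline replicate 3 it was -0.04. No sample label gives the slide row, which was inferred here from the names of the arrays. Row 1 was assigned 2 arrays per group and had a Ppard log2 ratio of 0.01. Row 2 was assigned 1 array per group and had 0.21.

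Pparg, the gene of PPAR gamma, is measured by a probe printed in 10 spots, so its level on an array rests on more spots than that of the other genes. All 10 spots were well above background on all 6 arrays. The levels were -0.09, -0.04 and -0.02 with LDL, against 0.14, 0.01 and 0.09 with saline. Every LDL array was below every saline array, by a narrow margin for saline replicate 2. The means were -0.05 ± 0.03 with LDL and 0.08 ± 0.06 with saline (SD, n = 3 each). The log2 ratio of -0.13 (SE 0.09, 95% interval -0.35 to 0.09) did not pass in limma (adjusted p = 0.822), and the exact permutation p was 0.1, the smallest possible. It kept its sign in 20 of 20 settings, from -0.16 to -0.09, with its lowest adjusted p, 0.39, when saline replicate 2 was left out.

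The 10 spots also show how much single spots vary within an array. Within an array the unflagged Pparg spots had an SD of 0.067 to 0.124, about the size of the difference between groups. This spread includes offsets of position that recurred in both groups. Position 9 averaged 0.10 with LDL and 0.18 with saline, and position 2 averaged -0.17 and -0.08. The SD is therefore no measure of precision for the comparison of groups. Averaged over 3 arrays each with flagged spots kept, the LDL level was below the saline level at 10 of 10 spot positions, by -0.07 to -0.22. The largest differences, -0.2186 and -0.2245 at positions 7 and 8, rest in part on spots flagged on saline replicates 1 and 3. Spots share their arrays and their RNA, so they are no replicates of the treatment. The other probes of these genes had 1 or 2 spots.

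**Figure D2:**
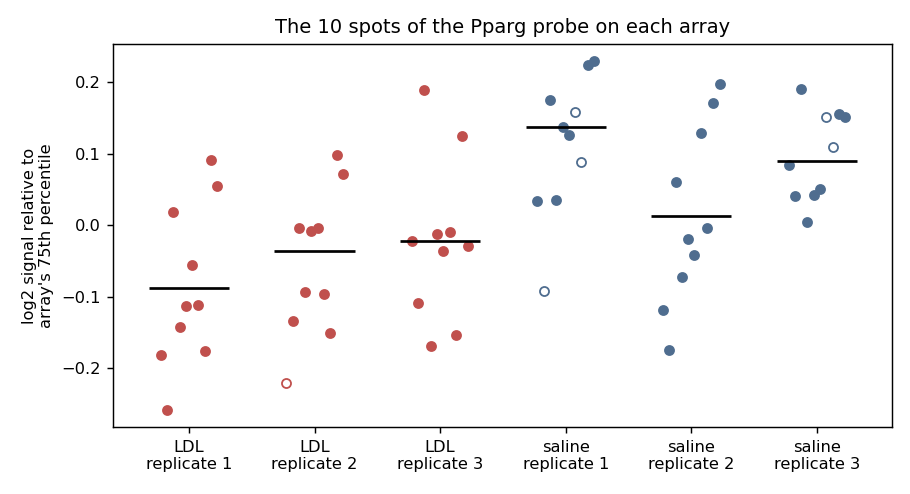
The 10 spots of the Pparg probe on each array (y axis, log2 level on the same scale as above), LDL arrays left of saline arrays. Open circles are spots with an outlier flag, left out of the array mean (black line); the 3 LDL means of -0.09 to -0.02 lie below the 3 saline means of 0.01 to 0.14, while single spots overlap.

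Among the retinoid X receptors, the brighter Rxra probe had levels of -1.21, -1.42 and -1.26 with LDL, against -1.23, -1.42 and -1.27 with saline. The values of the groups were nearly the same, with a log2 ratio of 0.01 (SE 0.11, 95% interval -0.25 to 0.26, adjusted p = 0.995). The sign of so small a value has no weight, and it turned negative without LDL replicate 1, LDL replicate 3 or saline replicate 2.

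The dimmer Rxra probe, also well above background on all 6 arrays, had levels of -2.97, -3.37 and -3.10 with LDL, against -3.64, -3.86 and -3.54 with saline. Every LDL array was above every saline array. Its log2 ratio was 0.53 (SE 0.15, 95% interval 0.19 to 0.88), a ratio of 1.45. Fitted over all single probes it did not pass (unadjusted p = 0.00832 in limma, adjusted p = 0.525, exact permutation p = 0.1). The difference was 0.58 in slide row 1 and 0.44 in slide row 2. The probes of Rxra thus disagreed, and with the mean of both the gene had 0.27 (adjusted p = 0.718).

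Rxrb, the gene of RXR beta, had levels of 2.88, 2.90 and 2.88 with LDL, against 2.84, 3.02 and 2.81 with saline. The LDL arrays lay inside the range of the saline arrays. The log2 ratio was -0.01 (SE 0.10, 95% interval -0.24 to 0.23, adjusted p = 0.994), and its sign turned with median scaling, with normexp and quantile normalization and with the authors' values.

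Ppargc1a encodes PGC-1 alpha, a coactivator of PPARs and other receptors that drives the formation of mitochondria. Its brighter probe had levels of 0.76, 0.83 and 0.62 with LDL, against 1.20, 0.90 and 0.80 with saline. The groups overlapped only between LDL replicate 2 and saline replicate 3. The means were 0.74 ± 0.10 with LDL and 0.97 ± 0.21 with saline (SD, n = 3 each). The log2 ratio of -0.23 (SE 0.13, 95% interval -0.55 to 0.08) was the furthest below 0 of the 7 genes and failed the test (adjusted p = 0.773), and it shrank to -0.12 when saline replicate 1 was left out.

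The dimmer Ppargc1a probe had levels of -2.57, -2.38 and -2.33 with LDL, against -1.97, -2.15 and -2.20 with saline. Here every LDL array was below every saline array. The log2 ratio was -0.32 (SE 0.12, 95% interval -0.59 to -0.04), and it did not pass (unadjusted p = 0.0314 in limma, adjusted p = 0.662). It was -0.41 in slide row 1 and -0.13 in slide row 2. Both probes thus had negative values, and Ppargc1a was negative in 20 of 20 settings, from -0.31 to -0.12.

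Over the 11 probes of the 7 genes, 0 passed over all single probes in limma, where 0.0879% of 32990 probes did. An unadjusted p under 0.05 was found for 2 of the 11, the dimmer probes of Rxra and Ppargc1a, and for 6.95% of all probes. The arrays did not overlap for 3 of the 11 probes, and for 14.1% of all probes.

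**Figure D3:**
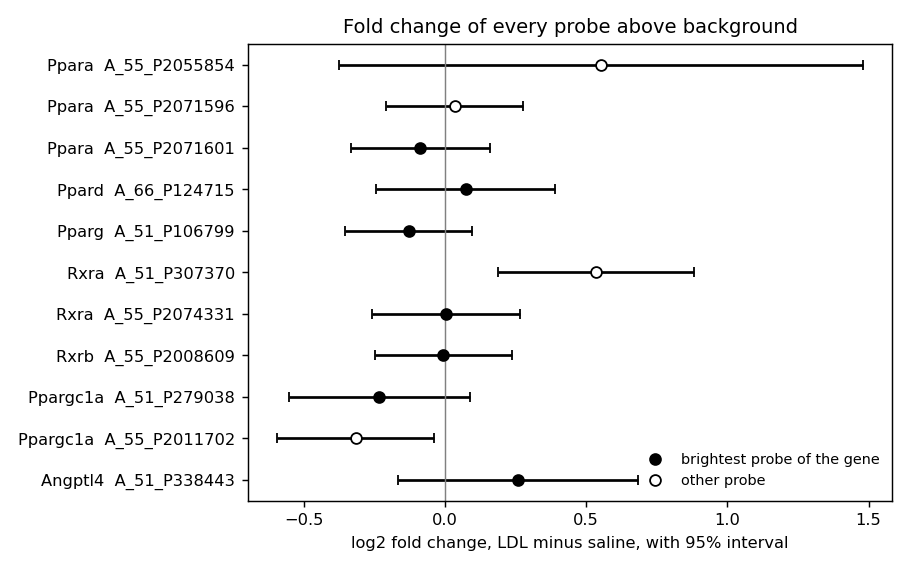
Log2 ratio of LDL minus saline (x axis) with its 95% interval for the 11 probes above background (rows). Filled circles are the brightest probe of a gene and open circles its other probes; the dimmer Rxra probe at 0.53 and the dimmer Ppargc1a probe at -0.32 have intervals that leave out 0.

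Of the target genes, Angptl4 encodes a secreted inhibitor of lipoprotein lipase and is induced by fatty acids through PPARs in many cell types. Its levels were -2.31, -2.10 and -2.40 with LDL, against -2.36, -2.89 and -2.33 with saline. The groups overlapped, and saline replicate 2 stood apart as the lowest. The means were -2.27 ± 0.15 with LDL and -2.53 ± 0.32 with saline (SD, n = 3 each). The log2 ratio was 0.26 (SE 0.18, 95% interval -0.16 to 0.68, adjusted p = 0.815), the highest of the 7 genes. Without saline replicate 2 it was 0.08. It was 0.42 in slide row 1, which holds that array, and -0.07 in slide row 2. With normexp and quantile normalization it was 0.13, and with the authors' values 0.17.

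Pdk4 encodes a pyruvate dehydrogenase kinase that limits the use of pyruvate when fatty acids are burned. Its probe had processed signals of 6.98, 4.42 and 4.38 with LDL, against 3.75, 6.50 and 4.41 with saline. It was well above background on none of the 6 arrays. The lowest signal that counted as well above background was 33.4, 21.4 and 21.5 on these LDL arrays, and 18.4, 30.8 and 21.5 on the saline arrays. Both groups were thus below that level, and no fold change is given.

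Ucp2 encodes a carrier of the inner mitochondrial membrane. Its probe had processed signals of 6.93, 6.53 and 8.59 with LDL, against 5.94, 6.35 and 18.8 with saline. It was well above background on none of the 6 arrays, although saline replicate 3 came near the level of 21.5. A weaker criterion, a positive and significant signal over background, was met by Ucp2 on LDL replicates 2 and 3 and saline replicates 1 and 3. Pdk4 met it on no array. A difference in either gene was not detectable with these probes, which does not show that the transcripts are absent.

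**Figure D4:**
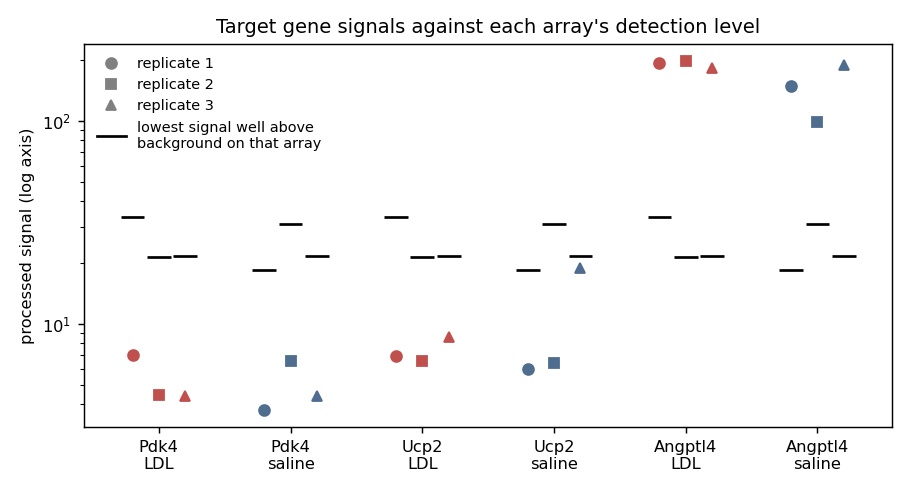
Processed signal on a log axis for the target genes Pdk4, Ucp2 and Angptl4 on each array, LDL left of saline, with black lines at the lowest signal that was well above background on the same array. Pdk4 and Ucp2 lie below their lines on all 6 arrays, at 3.75 to 18.8, and Angptl4 lies above them, at 98.2 to 196.3.

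The 7 tested genes varied less among LDL arrays than among saline arrays in 6 cases, the exception being Rxra. The same held for 75.7% of all features, whose median SD was 0.105 with LDL and 0.188 with saline. By the likeness of their levels to those of Ppargc1a over the 6 arrays, the nearest of 14931 other named features were Nfib (Pearson r = 0.999), Gabra2 (0.997) and Tekt4 (0.993). All 57 features with r above 0.95 share these same 6 arrays and their scaling, so the likeness is a description.

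Other fatty-acid-responsive PPAR targets formed a list of 44 genes, of which 34 were tested. None passed over all features in limma, against 0.0248% of all features that were higher and 0.116% that were lower. With an unadjusted p under 0.05 there were 10 higher and 2 lower, where 2.98% of all features were higher and 4.52% lower at that level. The arrays did not overlap for 13 genes that were higher with LDL and 3 that were lower, against 5.86% and 8.79% of all features. The median log2 ratio was 0.11, with 26 positive and 8 negative values, where 43.7% of all features were positive. With 1 array left out the list median stayed between 0.08 and 0.15, against -0.058 to 0.0008 over all features. Cpt1a, which lets fatty acids into mitochondria, had 2.30 ± 0.05 with LDL and 1.25 ± 0.39 with saline (SD, n = 3 each), a log2 ratio of 1.05 (SE 0.19, adjusted p = 0.218). Acadl, the long-chain acyl-CoA dehydrogenase, had 0.59 (adjusted p = 0.236). Acaa2, the thiolase that ends a round of mitochondrial oxidation, had 0.67 (adjusted p = 0.486). Acsl3, an acyl-CoA synthetase of lipid droplets, had -0.59 (adjusted p = 0.478). Ehhadh, Fabp1, Fabp4, Vnn1 and Adipoq, all typical of liver or fat, were well above background on no array. Of 39 promoter windows of this list, 9 held the hexamer (23.1%) and 5 held a DR1 match with up to 2 mismatches (12.8%), against 16.3% and 3.86% of all windows. For the hexamer the shares were 25% in the windows of the receptors that pair with RXR, 14.3% in those of the coregulators, 12.5% in those of the relatives of the target genes and 5.88% in those of the retinoid genes. For the DR1 match with up to 2 mismatches they were 10%, 0%, 6.25% and 5.88% in the same order. Windows were taken for all listed genes, whether tested on the arrays or not. The PPAR target list was chosen as known targets, and with earlier results of these data known. Its counts, its median and its window shares are therefore a description and no test of PPAR action.

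The coregulators comprised 17 genes, all tested, with 0 passing and a median of 0.03, which lay between -0.00443 and 0.04 with 1 array left out. At an unadjusted p under 0.05 in limma 1 was higher and 3 were lower, where 2.98% of all features were higher and 4.52% lower. For 3 genes higher with LDL and 3 lower the arrays did not overlap, against 5.86% and 8.79% of all features. Values of the list ran from -0.37 to 0.56. Cited2, a coactivator of PPAR alpha and gamma, had 0.56 (adjusted p = 0.535). Tbl1xr1, a part of the corepressor complex, had -0.29 (adjusted p = 0.544), the coactivator Ncoa3 -0.26 (adjusted p = 0.60), and Pprc1, a relative of PGC-1 alpha, -0.37 (adjusted p = 0.616).

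The receptors that pair with RXR were 14 genes, 11 of them tested. None passed, and 1 was higher and 0 were lower at an unadjusted p under 0.05 in limma, beside 2.98% and 4.52% of all features. The median was -0.10. This median depended on single arrays and moved to -0.18 when LDL replicate 1 was left out and to 0.02 when saline replicate 1 was. The retinoic acid receptor genes Rarg and Rarb had 0.25 (adjusted p = 0.648) and -0.32 (adjusted p = 0.672). Nr1h3, the liver X receptor alpha gene, had -0.34 (adjusted p = 0.742). Rxrg, the remaining RXR gene, had 4.59 ± 0.01 with LDL and 4.77 ± 0.09 with saline (SD, n = 3 each), a log2 ratio of -0.18 (adjusted p = 0.747) with arrays that did not overlap.

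Relatives of the target genes, with the phosphatases that oppose the Pdk enzymes, were 15 genes of which 9 were tested. None passed, and 1 was higher and 1 lower at an unadjusted p under 0.05 in limma, beside 2.98% and 4.52% of all features. Pdp2, a pyruvate dehydrogenase phosphatase, had -2.04 ± 0.02 with LDL and -1.67 ± 0.03 with saline (SD, n = 3 each), a log2 ratio of -0.37 (adjusted p = 0.377). Angptl6, of the angiopoietin-like family, had 0.32 (adjusted p = 0.638), and the mitochondrial carriers Slc25a14 and Slc25a27 had -0.15 (adjusted p = 0.804) and 0.15 (adjusted p = 0.83). Among the other Pdk genes, Pdk1, Pdk2 and Pdk3 were measured on all arrays, with values from -0.09 to 0.01, while Ucp1 was well above background on none.

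Genes of retinoid binding, synthesis and breakdown, which set the supply of retinoic acids, were 14, of which 6 were tested. None passed, and 0 had an unadjusted p under 0.05 in limma, where 7.5% of all features did, a share that amounts to less than 1 gene in a list of 6. Rdh10, a retinol dehydrogenase, had 0.35 (adjusted p = 0.702), Aldh1a1, a retinaldehyde dehydrogenase, -0.16 (adjusted p = 0.871) and Crabp2, a retinoic acid binding protein, -0.11 (adjusted p = 0.909). Cyp26b1, an enzyme that breaks down retinoic acid, had levels of -4.47, -4.13 and -1.98 with LDL, against -4.61, -4.42 and -4.09 with saline. Its value of 0.85 (adjusted p = 0.824) rested on LDL replicate 3, which was also the array that stood alone for the single-spot Ppara probe.

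**Figure D5:**
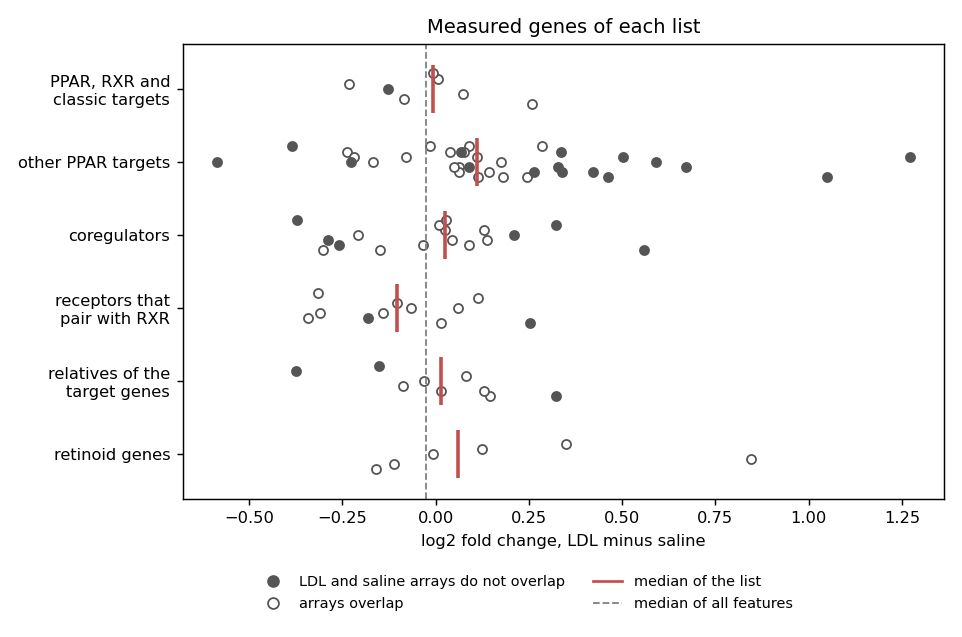
Log2 ratio of LDL minus saline (x axis) for each tested gene of 6 lists (rows), with filled circles where LDL and saline arrays do not overlap, red lines at list medians and a dashed line at the median of all features. The 7 receptors, coactivator and target genes lie between -0.23 and 0.26, and the other PPAR targets reach from -0.59 to 1.27.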

How the data were processed

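Agilent 1-colour arrays were read from scanner files with Agilent Feature Extraction 10.7.3.1, which per the file headers gives intensity values after background subtraction and detrending within an array. A second table deposited by the authors holds log2 values, whose steps are not given in the sources used here; it tracked the scanner values (r between 0.987 and 0.993 over spots, column medians 6.74 to 6.76). The submitters' processing notes name R 3.4.4 and limma 3.34.9.

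The processed signal was taken to log2 and the 75th percentile of the array subtracted. Controls and outlier-flagged spots were dropped before the spots of each probe were averaged. A probe was tested if at least a share of 0.5 of its spots was well above background on all 3 arrays of a group. Of 55681 probes, 28331 matched a gene symbol through unversioned RefSeq accessions (gene table of GRCm38.p6, used for names), since the files hold no gene name column. Genes with several probes were represented by the brightest, which left 24222 features. LDL was compared with saline in limma 3.58.1 (R 4.3.3, lmFit and eBayes, two-sided), without covariates, and p-values were adjusted by Benjamini-Hochberg across the features; single probes were fitted the same way. Of the features, 57 lacked a value on an array, none of them a gene described here in detail. Spot signals were given as median and not as mean, so normexp (offset 50) used medians. The fit was tested on simulated data with the same spread in both groups and with planted changes larger than those of the members. It therefore does not vouch for calls at the size of the members' differences. Members and lists were chosen with earlier results of these data known. Named genes were the 9 members, up to 4 list genes with the smallest p, markers, and the 3 features nearest to the tested member with the smallest p; any further name was picked with its value in view. Splits and blocks by slide row rest on the inferred row and not on a sample label. P-values measure the spread between these cultures. Figures used matplotlib 3.10.9.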

Additional observations from a re-analysis of the deposited data

How the results depend on the processing

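None of the 7 tested genes and none of the tested genes of the 5 lists passed in limma in any of 20 settings. Pdk4 and Ucp2 were fitted only without the background filter and did not pass there (adjusted p = 0.993 each). The count over all features depended on the setting. The 6 features higher after LDL became 11 with normexp and quantile normalization, 10 both with median scaling and in the authors' table, 19 with trended robust variances, 3 with outlier-flagged spots kept (chosen after seeing the data), 1 with slide row as a block, and 0 without the background filter and in slide row 1 alone. The 28 lower features became 15 with slide row as a block, and 0 without the filter and in slide row 1 alone. With 1 array left out there were 0 to 7 higher and 0 to 25 lower. Without LDL replicate 2, LDL replicate 3 or saline replicate 3 both counts were 0, with 996, 1383 and 1562 features at an unadjusted p below 0.05. The other settings with 0 in both directions had an unadjusted p below 0.05 for 1781 features without the filter and 874 in slide row 1.

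With the replicate block, 3 features were higher and 10 lower. Deviations of same-numbered arrays correlated at 0.236, -0.0812 and 0.206 across features, and those of differently numbered arrays between -0.273 and 0.0791. These values do not decide whether the arrays were paired, and the main fit did not assume it. The block leaves each fold change as it was and changed no call for the genes described. Signs turned for Ppara with the mean over probes (0.17), for Ppard without saline replicate 3 (-0.037, up to 0.15 without another array), for Rxra without LDL replicate 1 (-0.04), LDL replicate 3 (-0.01) or saline replicate 2 (-0.050, up to 0.067 without another array), and for Rxrb with normexp (0.00437), median scaling (0.033), the authors' values (0.00167) and without saline replicate 2 (0.058, down to -0.045 without another array). The cause was not tested. Dim probes limit what can be said of Pdk4 and Ucp2.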
